A study of Homo sapiens with 10 samples.

Results

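The 34 genes described here encode the autophagy receptors, the ATG machinery and a set of lysosomal proteins. They were matched by symbol to a list that names pathway members, out of 58222 genes in the expression table, and no threshold on a measured value entered that match. The list was, however, chosen with earlier results of these data known. Its counts are therefore set beside those of all tested genes as a description only. All 34 were found by symbol, and all 34 reached 1 TPM (a unit of RNA abundance corrected for length, as a share of the library) in at least 2 libraries and so entered the tests. RNA was sequenced from OVCAR-3 cells, a long-established line from a human ovarian adenocarcinoma, as 2 biological replicates in each of 5 groups. Day1 cells had spent 24 hours immobilized in silica gel, and Day3 cells 3 days. Extracted cells were those alive after 3 days of immobilization that had then grown for 2 weeks in standard culture. Treated cells were those alive after 24 hours in 0.5 uM cisplatin, a DNA-crosslinking platinum drug, and had then also recovered for 2 weeks, with no immobilization named in their labels. Control cells grew in standard culture. Every group was grown in serum-containing RPMI medium. The Extracted and Treated groups hold survivors only, so selection of cells and a lasting change within cells cannot be told apart, and RNA was not measured from the cisplatin-exposed cells at the end of the exposure in the libraries used here.

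In macroautophagy a double membrane grows around cytoplasmic cargo and closes into an autophagosome, which then fuses with a lysosome. The ULK1 kinase complex starts the process, the BECN1 complex makes the lipid signal that WIPI proteins read, and ATG3, ATG5, ATG7, ATG12 and ATG16L1 attach proteins of the ATG8 family (the LC3 and GABARAP proteins) to the membrane. Receptors such as SQSTM1 (p62) bind cargo and ATG8 proteins together. Lysosomes then degrade the cargo with acid hydrolases such as the cathepsins, inside a membrane rich in LAMP proteins. TFEB and TFE3 are transcription factors that bind the CLEAR element in lysosomal promoters, and mTORC1 holds them in the cytoplasm when nutrients are plentiful. RNA levels measure the supply of these transcripts and not the flux of cargo through the pathway. In RNA from whole cultures, fewer cells that express a gene and less RNA of it per cell cannot be told apart.

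Between 13896 and 14173 genes per library reached 1 TPM, and the Pearson correlation of replicates, across genes that are not independent replicates, was 0.983 to 0.991. Because TPM are shares of a fixed total, 2 classes of RNA that varied between libraries bear on every gene. Mitochondrially encoded mRNAs took up 2.29% and 3.92% of the Day1 libraries, 5.97% and 7.61% of the Day3 libraries, 11.1% and 10.6% of the Extracted, 10.8% and 10.4% of the Treated, and 16.7% and 15.8% of the Control libraries. Small-RNA genes held 14.7% of Treated replicate 2 and 3.22% of Extracted replicate 1, against 0.206% to 1.25% of the other 8 libraries. Treated replicate 2 therefore stands apart, and the Treated counts and calls that change without it are given both ways. All 8 markers of ovarian carcinoma epithelium reached 1 TPM, with a summed level of 5339 to 8063 TPM over the 10 libraries, while 2 of 6 fibroblast, 2 of 6 macrophage and leukocyte and 1 of 4 endothelial markers did so, with summed levels of at most 15.3 TPM.

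A gene was called higher or lower at an adjusted p under 0.05 in limma, fitted on log2(TPM + 1) over all 15167 tested genes and all 10 libraries. Fold changes below are log2 differences with their standard error, and p-values are Benjamini-Hochberg adjusted. Of the 34 genes, 24 were called in at least 1 of 7 comparisons and 10 in none. The 4 comparisons against Control share the Control libraries, so their results are not independent of each other.

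**Figure D1:**
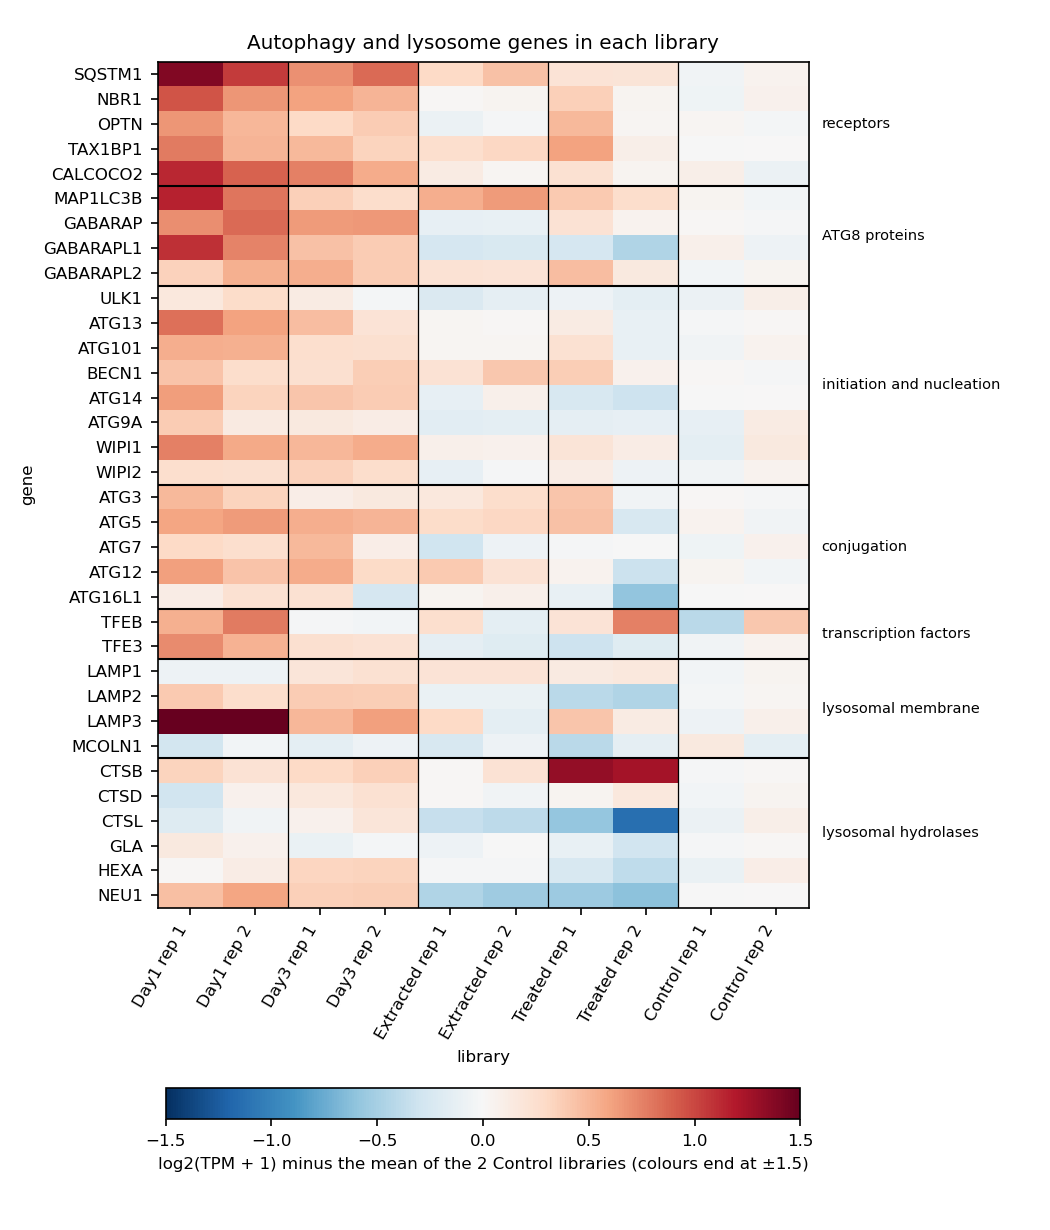
Level of each of the 34 genes (rows, grouped by role) in each of the 10 libraries (columns), as log2(TPM + 1) minus the mean of the 2 Control libraries. Red is above and blue below Control; SQSTM1, CALCOCO2, MAP1LC3B and GABARAPL1 are redder in both Day1 libraries than in any other, and CTSB is reddest in both Treated libraries.

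Day1 was the group in which the most of these genes differed from Control. After 24 hours in gel 19 of 34 genes were higher and 0 were lower, with 14.4% of all tested genes called higher and 6.28% called lower. At an unadjusted p under 0.05 in limma, 24 were higher and 0 lower. Shares of all tested genes were not taken at an unadjusted p. Such counts, here and below, thus cannot be set beside the shares at the adjusted threshold. The genes that rose included all 5 cargo receptors and all 4 ATG8 genes, but only NEU1 of the 6 hydrolases. The median fold change was 0.50 over the 34 genes and 0.12 over all tested genes, and 30 of the 34 had a positive fold change. The summed level of the 5 receptors was 751 ± 115 TPM on Day1 and 363 ± 8.14 TPM in Control cells (SD, n = 2 each). That of the 4 ATG8 genes was 701 ± 24.4 TPM on Day1 and 409 ± 8.57 TPM in Control cells.

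Mitochondrially encoded mRNAs held a smaller share of the Day1 libraries, which leaves more of the fixed total for other genes. With the libraries rescaled by the median of ratios, the median of all tested genes moved to 0.01 and that of the 34 genes was 0.38. Then 17 of the 34 were higher, with 10.8% of all tested genes called higher. With mitochondrial and small-RNA genes left out 15 of the 34 were higher, with 6.94% of all tested genes called higher. Among all tested genes, 69.6% of the Day1 calls were higher in the TPM as deposited, 49.23% after that rescaling and 33.21% with mitochondrial and small-RNA genes left out, where the median of all tested genes was -0.06. The count of 19 fell when any Control, Day1, Day3 or Extracted library was left out, most without a Control library or Day1 replicate 1. It rose when either Treated library was left out. The share of all tested genes called higher moved the same way, except without Day1 replicate 2, where it hardly changed. When each of the 4 Day1 and Control libraries was left out in turn, 9 genes were called every time, namely SQSTM1, NBR1, CALCOCO2, MAP1LC3B, GABARAP, GABARAPL1, ATG13, LAMP3 and NEU1.

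Of the receptors, SQSTM1 (ENSG00000161011, chromosome 5 from 179806398 to 179838078), which carries ubiquitinated cargo and also binds the NRF2 inhibitor KEAP1, changed most. Its level was 539 and 423 TPM on Day1, 330.1 and 371 TPM on Day3, 252 and 277 TPM in Extracted, 236 and 234 TPM in Treated, and 197 and 212 TPM in Control cells. Both replicates of each other group lay above both Control replicates. The Day1 fold change was 1.22 ± 0.12 (adjusted p = 0.000291, limma). CALCOCO2 (NDP52), a receptor for bacteria and damaged mitochondria, had 87.0 and 73.2 TPM on Day1, 67.3 and 58.5 TPM on Day3, 42.8 and 40.2 TPM in Extracted, 46.3 and 40.5 TPM in Treated, and 41.9 and 36.9 TPM in Control cells. Its Day1 fold change was 1.00 ± 0.13 (adjusted p = 0.00109, limma), while the Extracted and Treated values overlapped those of Control.

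NBR1, a receptor related to SQSTM1 in structure, had 39.6 and 32.4 TPM on Day1, 31.0 and 29.0 TPM on Day3, 20.4 and 20.8 TPM in Extracted, 26.0 and 20.7 TPM in Treated, and 19.2 and 21.0 TPM in Control cells (Day1 fold change 0.80 ± 0.14, adjusted p = 0.00441, limma). TAX1BP1, a ubiquitin-binding receptor that also restrains NF-kB signalling, had 128 and 106 TPM on Day1, 104 and 93.6 TPM on Day3, 88.5 and 91.8 TPM in Extracted, 113 and 78.6 TPM in Treated, and 73.9 and 74.3 TPM in Control cells. OPTN, a receptor in the clearance of damaged mitochondria, had 39.5 and 35.1 TPM on Day1, 30.5 and 32.2 TPM on Day3, 23.1 and 24.3 TPM in Extracted, 34.7 and 25.2 TPM in Treated, and 25.0 and 24.1 TPM in Control cells. All 3 had both Day1 libraries above both Control libraries. The Day1 fold changes of TAX1BP1 (0.64 ± 0.16) and OPTN (0.58 ± 0.14) each had an adjusted p of 0.0199 in limma. Their calls ended without Day1 replicate 1 or either Control replicate, with an adjusted p of up to 0.119 for TAX1BP1 and 0.108 for OPTN.

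**Figure D2:**
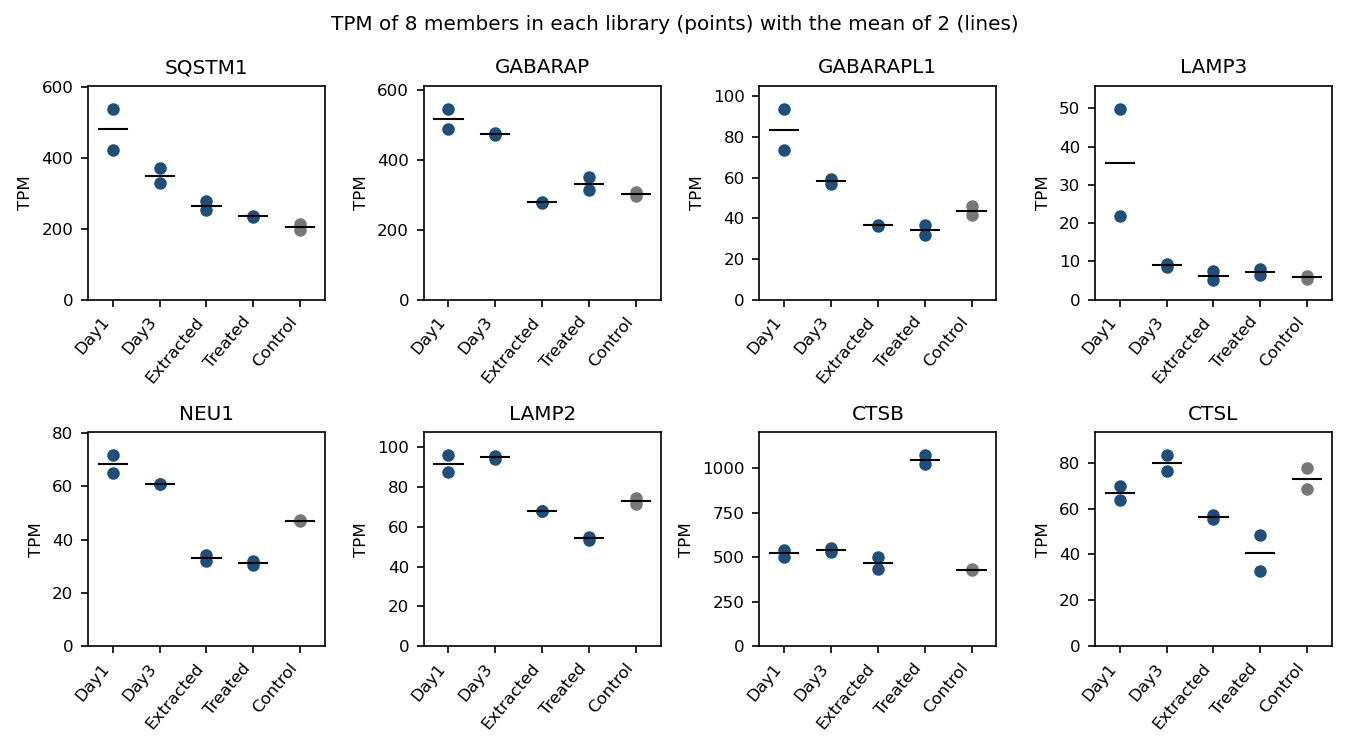
TPM of 8 of the genes in each library (points; 2 per group, in the order Day1, Day3, Extracted, Treated, Control) with the group mean as a bar line, on axes that start at 0. SQSTM1 reaches 539 and 423 TPM on Day1 against 197 and 212 TPM in Control, and CTSB 1073 and 1024 TPM in Treated against 426 and 434 TPM in Control cells.

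The ATG8 proteins are the ubiquitin-like proteins that become lipid-anchored to the autophagosome, and they rose together on Day1 from very different levels. GABARAP (ENSG00000170296, chromosome 17 from 7240014 to 7242770) made up 70.3% to 77.5% of the summed TPM of the 4 genes in the 10 libraries. It had 489 and 546 TPM on Day1, 471 and 476 TPM on Day3, 277 and 279.9 TPM in Extracted, 351 and 313 TPM in Treated, and 307 and 297 TPM in Control cells. The Day1 fold change was 0.77 ± 0.09 (adjusted p = 0.000762, limma), and every library from gel lay above every library of the other 3 groups. GABARAPL1, a close relative of GABARAP, had 93.8 and 73.4 TPM on Day1, 59.3 and 56.9 TPM on Day3, 36.4 and 36.9 TPM in Extracted, 36.5 and 31.7 TPM in Treated, and 45.8 and 41.3 TPM in Control cells. Its Day1 fold change was 0.92 ± 0.13 (adjusted p = 0.00191, limma), and its values were below Control in both recovered groups without passing the test.

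MAP1LC3B (ENSG00000140941, chromosome 16 from 87383995 to 87404779) encodes LC3B, whose lipid-bound form is the usual marker of autophagosomes. Its level was 42.9 and 33.4 TPM on Day1, 24.4 and 22.6 TPM on Day3, 27.9 and 29.7 TPM in Extracted, 25.0 and 22.6 TPM in Treated, and 19.3 and 18.2 TPM in Control cells. Both replicates of every other group were above Control, but only the Day1 fold change of 0.98 ± 0.13 passed the test (adjusted p = 0.00147, limma). GABARAPL2 (GATE-16) had 57.4 and 65.4 TPM on Day1, 65.8 and 59.0 TPM on Day3, 52.3 and 51.8 TPM in Extracted, 62.2 and 49.9 TPM in Treated, and 43.7 and 46.2 TPM in Control cells. Its smaller Day1 fold change of 0.44 ± 0.12 (adjusted p = 0.0332, limma) lost its call when any of the 4 Day1 and Control libraries was left out, with an adjusted p of 0.0536 to 0.162. Of their near-identical copies, MAP1LC3B2 was given at most 0.299 TPM and GABARAPL3 was listed at 0, and how reads were shared between copies was not tested.

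Among the 8 genes of initiation and nucleation, 4 rose on Day1. ATG13, the adaptor of the ULK1 complex, had 82.2 and 70.5 TPM on Day1, 63.7 and 53.1 TPM on Day3, 47.0 and 46.7 TPM in Extracted, 50.2 and 42.4 TPM in Treated, and 45.4 and 46.5 TPM in Control cells (Day1 fold change 0.72 ± 0.13, adjusted p = 0.00513, limma). WIPI1, which binds the lipid signal on the growing membrane, had 25.4 and 22.2 TPM on Day1, 21.1 and 22.1 TPM on Day3, 15.5 and 15.4 TPM in Extracted, 16.9 and 16.0 TPM in Treated, and 13.1 and 16.4 TPM in Control cells (Day1 fold change 0.66 ± 0.13, adjusted p = 0.00761, limma). Both genes were higher in both Day1 and both Day3 libraries than in either Control library. ATG101, which stabilizes ATG13, had 76.3 and 76.0 TPM on Day1, 62.1 and 61.7 TPM on Day3, 53.2 and 53.1 TPM in Extracted, 61.3 and 48.1 TPM in Treated, and 50.1 and 54.1 TPM in Control cells (Day1 fold change 0.54 ± 0.12, adjusted p = 0.012, limma).

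ATG14, which directs the BECN1 complex to autophagosome formation, had 12.6 and 10.2 TPM on Day1, 10.7 and 10.5 TPM on Day3, 7.11 and 8.26 TPM in Extracted, 6.49 and 6.13 TPM in Treated, and 7.78 and 7.86 TPM in Control cells (Day1 fold change 0.48 ± 0.14, adjusted p = 0.0337, limma). WIPI2, the relative of WIPI1 that recruits ATG16L1, had 53.4 and 53.2 TPM on Day1, 57.2 and 54.0 TPM on Day3, 41.0 and 44.2 TPM in Extracted, 48.5 and 42.6 TPM in Treated, and 43.3 and 46.3 TPM in Control cells, with a Day1 fold change of 0.25 ± 0.10 that did not pass (adjusted p = 0.115, limma). ULK1, BECN1 and ATG9A were called in no comparison. The WIPI1 call ended without Control replicate 1 (adjusted p = 0.0668), and those of ATG101 and ATG14 ended without Day1 replicate 1 or either Control replicate, with an adjusted p of up to 0.0881 for ATG101 and 0.164 for ATG14. ATG14 also lost its call after median-of-ratios rescaling (adjusted p = 0.0549).

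Of the 5 conjugation genes, 2 rose on Day1. ATG5, which is joined to ATG12 and helps attach ATG8 proteins to lipid, had 37.1 and 38.4 TPM on Day1, 35.8 and 34.9 TPM on Day3, 29.6 and 30.3 TPM in Extracted, 33.3 and 20.3 TPM in Treated, and 25.1 and 23.4 TPM in Control cells (Day1 fold change 0.62 ± 0.18, adjusted p = 0.0378, limma). ATG12, its ubiquitin-like partner, had 37.8 and 33.1 TPM on Day1, 36.4 and 30.1 TPM on Day3, 32.4 and 28.4 TPM in Extracted, 25.3 and 19.3 TPM in Treated, and 25.2 and 23.6 TPM in Control cells (Day1 fold change 0.52 ± 0.15, adjusted p = 0.0374, limma). For both, every library from gel and every Extracted library lay above both Control libraries, while the Treated libraries overlapped Control. The call of ATG5 ended when any of the 4 Day1 and Control libraries was left out (adjusted p = 0.106 to 0.167), and that of ATG12 ended without Day1 replicate 1 or either Control replicate (adjusted p of up to 0.173). ATG7, the E1-like enzyme of both conjugation systems, had 14.7 and 14.2 TPM on Day1, 16.9 and 12.7 TPM on Day3, 9.37 and 11.1 TPM in Extracted, 11.7 and 11.7 TPM in Treated, and 11.3 and 12.3 TPM in Control cells, and its Day1 fold change of 0.27 ± 0.15 did not pass (adjusted p = 0.211, limma).

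The 2 transcription factors differed widely in level. TFE3 had 22.0 and 19.2 TPM on Day1, 15.6 and 15.3 TPM on Day3, 11.8 and 11.4 TPM in Extracted, 10.3 and 11.4 TPM in Treated, and 12.6 and 13.5 TPM in Control cells. It rose on Day1 (fold change 0.62 ± 0.12, adjusted p = 0.00685, limma), a call that ended without Control replicate 1 (adjusted p = 0.0565). TFEB had 2.72 and 3.40 TPM on Day1, 1.54 and 1.50 TPM on Day3, 2.07 and 1.33 TPM in Extracted, 1.97 and 3.34 TPM in Treated, and 0.938 and 2.41 TPM in Control cells. Its fold change on Day1 was similar in size (0.65 ± 0.29) but did not pass (adjusted p = 0.133, limma), and its SE was more than that of any other of the 34 genes except LAMP3.

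The largest Day1 change of all 34 genes was that of LAMP3 (DC-LAMP, ENSG00000078081, chromosome 3 from 183122213 to 183163839), a lysosomal membrane glycoprotein first known from mature dendritic cells and induced by hypoxia and the unfolded-protein response in tumour cell lines. It had 49.9 and 21.7 TPM on Day1, 8.54 and 9.39 TPM on Day3, 7.35 and 5.11 TPM in Extracted, 8.03 and 6.36 TPM in Treated, and 5.43 and 6.13 TPM in Control cells. The Day1 replicates differed widely from each other, yet both exceeded every library of the other 4 groups. The fold change was 2.33 ± 0.31 (adjusted p = 0.00143, limma), and it was 1.75 to 2.91 with a Day1 or Control library left out. LAMP2, an abundant lysosomal membrane protein needed for fusion and for chaperone-mediated autophagy, had 95.9 and 87.6 TPM on Day1, 95.5 and 94.2 TPM on Day3, 68.0 and 67.9 TPM in Extracted, 55.0 and 53.2 TPM in Treated, and 71.5 and 74.3 TPM in Control cells. Its modest Day1 rise of 0.33 ± 0.09 (adjusted p = 0.0294, limma) was not called after median-of-ratios rescaling (adjusted p = 0.0882), nor without Day1 replicate 1 or either Control replicate (adjusted p of up to 0.160).

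NEU1 (ENSG00000204386, chromosome 6 from 31857659 to 31862906), the lysosomal sialidase whose loss causes sialidosis, was the 1 hydrolase of 6 that rose on Day1. It had 64.9 and 71.7 TPM on Day1, 60.8 and 61.0 TPM on Day3, 34.1 and 32.1 TPM in Extracted, 31.9 and 30.5 TPM in Treated, and 47.0 and 47.3 TPM in Control cells. The Day1 fold change was 0.52 ± 0.10 (adjusted p = 0.00581, limma), and Control lay between the gel groups above it and the recovered groups below it. The other hydrolases had Day1 fold changes of -0.12 (CTSL) to 0.28 (CTSB), none of them called.

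By Day3, 8 of the 34 genes were higher than in Control and 0 were lower, with 5.18% of all tested genes called higher and 4.64% called lower. They were the receptors SQSTM1 (fold change 0.77 ± 0.12, adjusted p = 0.00602), CALCOCO2 (0.66 ± 0.13, adjusted p = 0.0138) and NBR1 (0.55 ± 0.14, adjusted p = 0.0348), the ATG8 genes GABARAP (0.65 ± 0.09, adjusted p = 0.00383) and GABARAPL2 (0.46 ± 0.12, adjusted p = 0.0441), and WIPI1 (0.53 ± 0.13, adjusted p = 0.032), LAMP2 (0.38 ± 0.09, adjusted p = 0.0296) and NEU1 (0.36 ± 0.10, adjusted p = 0.0414), all from limma. At an unadjusted p under 0.05 in limma 21 were higher and 0 lower, and the median fold change was 0.33 over the 34 genes and 0.06 over all tested genes. The count of 8 fell when any Control, Day3 or Extracted library was left out, and rose when either Day1 or either Treated library was. The share of all tested genes called higher moved the same way in each of these fits. GABARAP alone was called each time a Day3 or Control library was left out. After median-of-ratios rescaling 7 were higher, NEU1 being lost (adjusted p = 0.0661), with 5.49% of all tested genes called higher. With mitochondrial and small-RNA genes left out 5 were higher, with 3.07% of all tested genes called higher. Of all Day3 calls 52.79% were higher in the deposited TPM, 42.23% after that rescaling and 23.76% with mitochondrial and small-RNA genes left out.

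Day3 was also compared with Day1 directly. Of the 34 genes 0 were higher and 2 were lower, with 0.659% of all tested genes called higher and 1.69% called lower. At an unadjusted p under 0.05 in limma 3 were higher and 9 lower. LAMP3 fell by 1.77 ± 0.31 (adjusted p = 0.0222, limma) and MAP1LC3B by 0.67 ± 0.13 (adjusted p = 0.0336, limma), which places both of their Day3 libraries below both Day1 libraries. Both calls ended without Day1 replicate 1, Day3 replicate 1 or Day3 replicate 2, with an adjusted p of up to 0.156 for LAMP3 and 0.241 for MAP1LC3B. Without Day1 replicate 2 both counts rose, and the count lower fell without either Extracted or either Control library. The shares of all tested genes called moved the same way in these fits. All 5 receptors had a negative fold change, of -0.45 (SQSTM1) to -0.23, without passing the test. GABARAPL2, at 0.02 ± 0.12, and LAMP2, at 0.05 ± 0.09, had the fold changes nearest to 0 of those called against Control at both times. Of all Day3 calls against Day1, 28.09% were higher in the deposited TPM, 39.5% after median-of-ratios rescaling and 39.96% with mitochondrial and small-RNA genes left out.

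**Figure D3:**
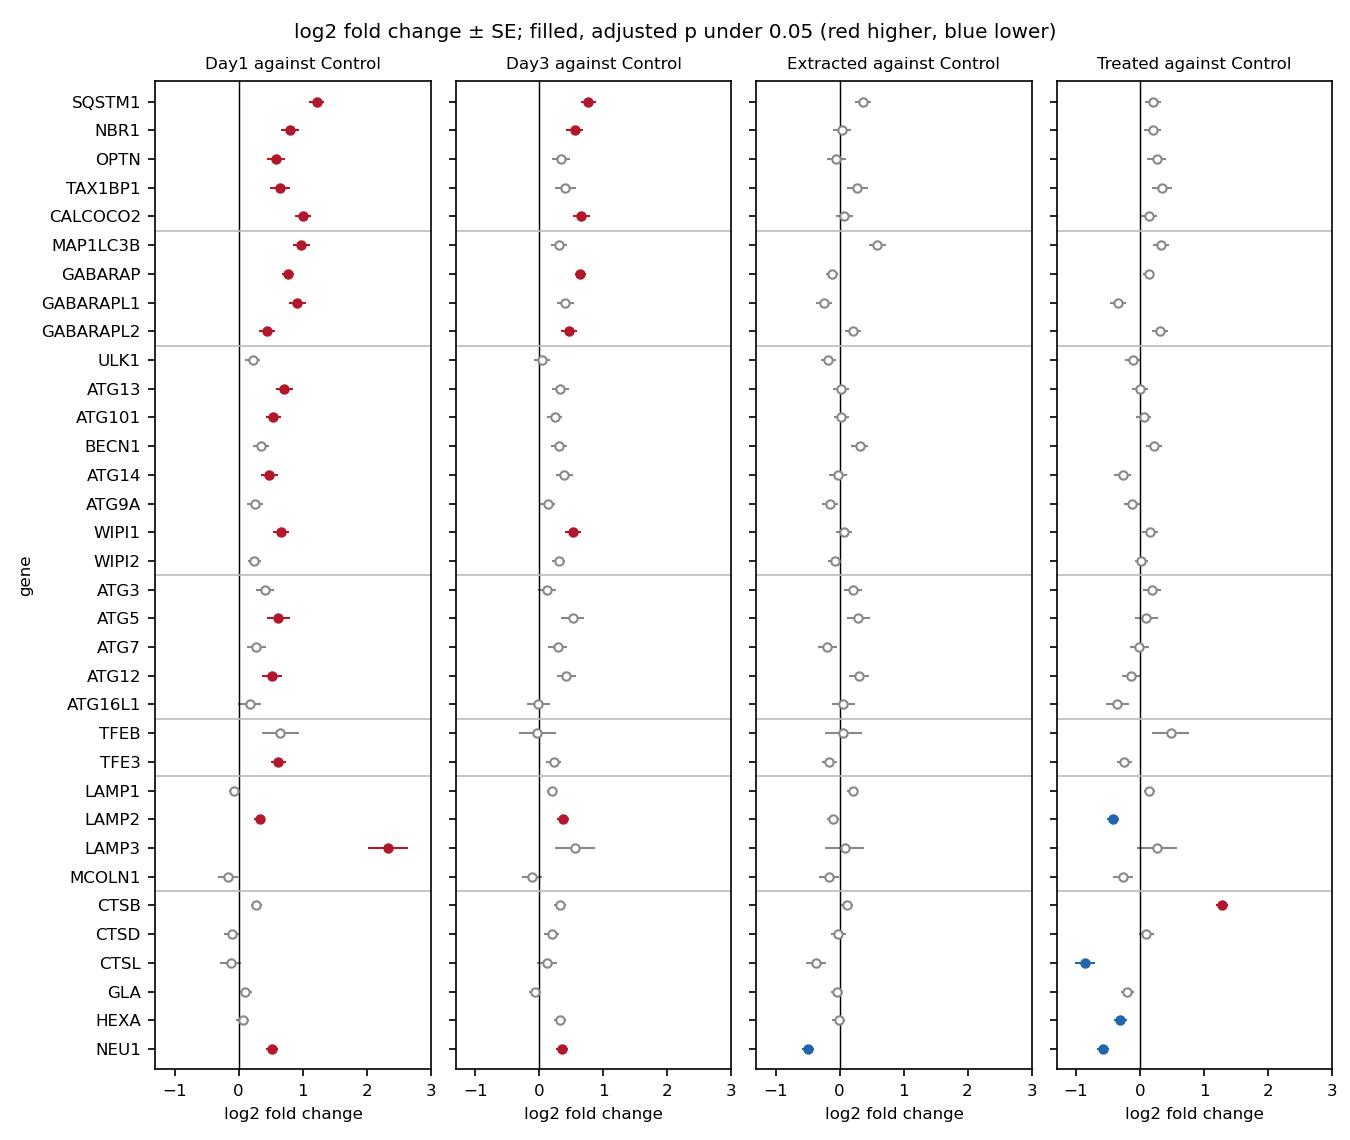
Log2 fold change of each of the 34 genes against Control (x axes, bars are the SE from limma) on Day1, on Day3, in Extracted and in Treated cells, 1 panel each. Filled points have an adjusted p under 0.05; there are 19 higher on Day1, 8 higher on Day3, 1 lower in Extracted, and 1 higher (CTSB) and 4 lower in Treated cells.

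The promoters of these genes were searched for letters that the pathway's known regulators read, to set them beside the Day1 calls. The RefSeq table (GRCh38.p14) held a window of 250 bases before to 50 after the start for 30 of the 34 genes, and none for LAMP2, LAMP3, CTSB or HEXA. On either strand, the E-box core of the CLEAR element, CACGTG, was found in 6 of the 30 windows (20.0%), against 7.256% of all 35116 windows. The extended form GTCACGTG, which contains that core, was found in 5 of the 30 (16.667%), against 2.403% of all. Among the 17 genes with a window that were higher on Day1, the core was present in ATG14 and NEU1, and among the 13 not called it was present in ATG3, LAMP1, MCOLN1 and CTSD. The antioxidant response element core that NRF2 reads, TGACNNNGC, was found in 7 of the 30 (23.333%), against 13.347% of all windows. It was present in 3 of the 17 genes higher on Day1 (CALCOCO2, MAP1LC3B and ATG101). Among the 13 not called it was present in 4 (LAMP1, CTSD, CTSL and GLA). The amino-acid response element TGATGNAA, read by ATF4, was found in 0 of the 30 and in 3.617% of all. A match of letters is a description of the window and does not show binding.

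The stretches below, all before the RefSeq start and written 5′ to 3′ on the gene's strand, set 2 genes with the core that rose on Day1 (ATG14 and NEU1) beside 2 with the core that did not pass (LAMP1 and MCOLN1), and then show the antioxidant core of MAP1LC3B. Capitals mark the matched letters. LAMP1 holds 6 matches of the E-box core in its window, of which the 5 that lie wholly before the start are shown.
ATG14, chr14:55411837-55411866, minus strand: ttgaaaacaaaatccCACGTGactggctct
NEU1, chr6:31862907-31862971, minus strand: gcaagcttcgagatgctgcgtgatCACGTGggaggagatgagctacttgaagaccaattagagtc
LAMP1, chr13:113297039-113297238, plus strand: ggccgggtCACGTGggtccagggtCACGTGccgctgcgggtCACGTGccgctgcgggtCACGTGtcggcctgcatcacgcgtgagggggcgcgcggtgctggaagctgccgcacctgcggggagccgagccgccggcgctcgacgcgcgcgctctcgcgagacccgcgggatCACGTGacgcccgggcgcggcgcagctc
MCOLN1, chr19:7522564-7522623, plus strand: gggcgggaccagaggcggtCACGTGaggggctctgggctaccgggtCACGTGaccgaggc
MAP1LC3B, chr16:87392274-87392303, plus strand: cgcgtcgcgagtcaccTGACCAGGCtgcgg

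The Extracted cells asked what remained 2 weeks after release from the gel. Against Control, 0 of the 34 genes were higher and 1 was lower in limma, with 0.857% of all tested genes called higher and 1.13% called lower. At an unadjusted p under 0.05 in limma 4 were higher and 2 lower, and leaving out either Day1 or either Treated library gave 1 higher. NEU1 fell by 0.50 ± 0.10 (adjusted p = 0.0337, limma), with both Extracted libraries below both Control libraries. That call ended when any of the 4 Extracted and Control libraries was left out, with an adjusted p of 0.157 to 0.292. MAP1LC3B was higher in both Extracted libraries with a fold change of 0.59 ± 0.13 that just missed the threshold (adjusted p = 0.0538, limma), and it was called after median-of-ratios rescaling (0.61, adjusted p = 0.0186). Among all Extracted calls against Control 43.05% were higher in the deposited TPM, 51.8% after that rescaling and 27.38% with mitochondrial and small-RNA genes left out.

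Against Day3, the same Extracted cells had 0 of the 34 genes higher and 12 lower, with 6.3% of all tested genes called higher and 10.8% called lower. At an unadjusted p under 0.05 in limma 0 were higher and 18 lower. The genes that fell were the receptors SQSTM1, NBR1 and CALCOCO2, the ATG8 genes GABARAP and GABARAPL1, WIPI1, WIPI2, ATG7, TFE3, LAMP2, HEXA and NEU1. The largest falls were those of NEU1, by 0.86 ± 0.10 (adjusted p = 0.000597), GABARAP, by 0.76 ± 0.09 (adjusted p = 0.00084), and GABARAPL1, by 0.65 ± 0.13 (adjusted p = 0.00841, all limma). CALCOCO2 fell by 0.59 ± 0.13 (adjusted p = 0.0124, limma) and LAMP2 by 0.48 ± 0.09 (adjusted p = 0.00632, limma). The other 7 fell by 0.34 (HEXA) to 0.52 (NBR1), with an adjusted p of 0.0285 to 0.0497. HEXA, the alpha subunit of beta-hexosaminidase, had 136 and 146 TPM on Day1, 168 and 170.3 TPM on Day3, 133 and 133 TPM in Extracted, 114 and 103 TPM in Treated, and 125 and 145 TPM in Control cells, so that Day3 was its highest group.

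The median fold change of Extracted against Day3 was -0.29 over the 34 genes and -0.07 over all tested genes. The count of 12 fell when any Day3, Extracted or Control library was left out. The share of all tested genes called lower fell in each of these fits too. NEU1 and GABARAP were called in each of the 4 fits that leave out a Day3 or Extracted library. After median-of-ratios rescaling 9 were lower and MAP1LC3B was called higher (0.35, adjusted p = 0.0429), with 9.98% of all tested genes called lower and 10.7% higher. SQSTM1, TFE3, ATG7 and HEXA lost their calls, and CTSL gained one (-0.42, adjusted p = 0.0413). With mitochondrial and small-RNA genes left out 8 were lower, with 9.71% of all tested genes called lower. Of all calls in this comparison 36.74% were higher in the deposited TPM, 51.64% after median-of-ratios rescaling and 51.49% with mitochondrial and small-RNA genes left out.

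In the Treated cells a cathepsin gene rose while another cathepsin, 2 glycosidases and LAMP2 fell. Of the 34 genes 1 was higher and 4 were lower, with 6.28% of all tested genes called higher and 18.2% called lower. CTSB (ENSG00000164733, chromosome 8 from 11842524 to 11869448), the cysteine protease cathepsin B and on average the most abundant of the 34 transcripts in TPM, rose. It had 543 and 501 TPM on Day1, 528 and 550.3 TPM on Day3, 435 and 501 TPM in Extracted, 1073 and 1024 TPM in Treated, and 426 and 434 TPM in Control cells. The fold change in Treated cells was 1.28 ± 0.09 against Control (adjusted p = 4.14e-05, limma) and 1.17 ± 0.09 against Extracted (adjusted p = 0.00017, limma). Both calls were made in each of the 4 fits that leave out a library of the groups compared. The 6 hydrolases, CTSB among them, summed to 1468 ± 46.9 TPM in Treated and 917 ± 33.5 TPM in Control cells (SD, n = 2 each). CTSB alone averaged 1049 TPM in Treated and 430 TPM in Control cells. The means of CTSL, HEXA, NEU1 and GLA were lower in Treated than in Control cells, and that of CTSD was higher. Of the 13 tested neighbours of CTSB within 1 Mb, 1 was called against Control, MTMR9, which was lower (-0.62, adjusted p = 0.0261, limma). Macrophages also express CTSB strongly, and the 6 macrophage and leukocyte markers summed to 7.79 to 8.95 TPM in Treated and 3.01 to 5.98 TPM in Control cells. Of these markers CD68, a lysosomal protein also made by other cells, had 6.21 and 7.46 TPM in Treated and 5.21 and 2.59 TPM in Control cells, while CD14 had 1.31 and 1.21 TPM in Treated and 0.646 and 0.365 TPM in Control cells. CSF1R had 0.197 and 0.0359 TPM in Treated cells and was listed at 0 in both Control libraries, CD3E had 0 and 0.0570 TPM in Treated cells and was also listed at 0 in both Control libraries, PTPRC had 0.0668 and 0.192 TPM in Treated and 0.114 and 0.0452 TPM in Control cells, and CD163 was listed at 0 in all 10 libraries. The part of such cells in the CTSB result was not tested.

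The 4 genes that fell in Treated cells were CTSL, LAMP2, HEXA and NEU1. CTSL, the cysteine protease cathepsin L, had 63.9 and 70.1 TPM on Day1, 76.5 and 83.3 TPM on Day3, 57.0 and 55.5 TPM in Extracted, 48.5 and 32.8 TPM in Treated, and 68.6 and 77.7 TPM in Control cells. It fell by 0.86 ± 0.16 against Control (adjusted p = 0.00505, limma), a direction opposite to that of CTSB. NEU1 fell by 0.58 ± 0.10 (adjusted p = 0.00276), LAMP2 by 0.42 ± 0.09 (adjusted p = 0.00877) and HEXA by 0.31 ± 0.10 (adjusted p = 0.0463, all limma). The CTSL and LAMP2 calls ended without Control replicate 2 (adjusted p = 0.0507 and 0.0765), and that of HEXA without Treated replicate 2 or either Control replicate (adjusted p of up to 0.305). HEXA was also not called after median-of-ratios rescaling (adjusted p = 0.241).

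Treated replicate 2, with its large share of small-RNA transcripts, bears on the other genes in this group. ATG5 had 33.3 TPM in Treated replicate 1 and 20.3 TPM in Treated replicate 2, on either side of the Control values of 25.1 and 23.4 TPM. Without Treated replicate 2, ATG5, TAX1BP1, OPTN, ATG3 and GABARAPL2 were called higher beside CTSB, for 6 higher and 3 lower. Without Treated replicate 1, 1 was higher and 6 were lower, with ATG16L1 and GABARAPL1 added. Without Control replicate 2, 1 was higher and 1 lower, and without either Day1 library 2 were higher. Where a count changed in these fits, the share of all tested genes called moved the same way, but not by a like amount. Without Treated replicate 2 the share of all tested genes called higher rose only slightly. The share called lower fell more steeply there, in proportion, than the count lower. After median-of-ratios rescaling 11 were higher and 3 lower, with 12.2% of all tested genes called higher and 11.7% lower. The added genes were SQSTM1, NBR1, OPTN, TAX1BP1, GABARAP, GABARAPL2, MAP1LC3B, BECN1, ATG3 and LAMP1. With mitochondrial and small-RNA genes left out the counts were 4 and 4, with 8.5% of all tested genes called higher and 20.1% lower. The median of all tested genes was -0.15 in the deposited TPM and -0.01 after that rescaling, and the median of the 34 genes was 0.08 and 0.24. Among all Treated calls against Control, 25.65% were higher in the deposited TPM, 51.05% after rescaling and 29.72% with mitochondrial and small-RNA genes left out, so the split of calls in this group depends on the scaling.

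The Treated cells were also set against the Extracted cells, both having recovered for 2 weeks. Besides CTSB, which was higher, LAMP2 fell by 0.32 ± 0.09 (adjusted p = 0.0444, limma), which makes 1 gene higher and 1 lower of 34, with 3.24% of all tested genes called higher and 8.87% called lower. The LAMP2 call ended without either Extracted replicate or Treated replicate 2 (adjusted p of up to 0.214) and after median-of-ratios rescaling (adjusted p = 0.157), where OPTN (0.45, adjusted p = 0.0255) and GABARAP (0.40, adjusted p = 0.0186) were called higher beside CTSB. Without Treated replicate 1 the count lower rose, and so did the share of all tested genes called lower. Without Treated replicate 2 the count higher rose, while the share of all tested genes called higher fell. The median of all tested genes was -0.13 in the deposited TPM and -0.01 after rescaling, and 26.74% and 54.09% of all calls were higher, with 43.13% higher when mitochondrial and small-RNA genes were left out. The NEU1 levels of the recovered groups, 31.9 and 30.5 TPM in Treated and 34.1 and 32.1 TPM in Extracted cells, lay close together (-0.08 ± 0.10, adjusted p = 0.592, limma).

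The 10 genes called in no comparison were ULK1, BECN1, ATG9A, ATG3, ATG16L1, TFEB, LAMP1, MCOLN1, CTSD and GLA. BECN1, the scaffold of the lipid kinase complex, was the highest of them among initiation genes, at 55.2 and 49.4 TPM on Day1, 48.5 and 53.3 TPM on Day3, 47.6 and 54.7 TPM in Extracted, 53.1 and 43.0 TPM in Treated, and 41.5 and 40.3 TPM in Control cells. All of its other values lay above both Control values, with fold changes of 0.22 to 0.34 that did not pass. ATG3, the E2-like enzyme of ATG8 conjugation, had 152 and 137 TPM on Day1 and 109.6 and 107 TPM in Control cells, where its fold change of 0.41 ± 0.14 did not pass (adjusted p = 0.0617, limma). LAMP1, the other main LAMP protein, had 74.3 and 73.9 TPM on Day1, 88.4 and 91.3 TPM on Day3, 90.2 and 89.9 TPM in Extracted, 85.7 and 87.1 TPM in Treated, and 76.1 and 80.1 TPM in Control cells, so that Day1 was its lowest group. CTSD, the aspartic protease cathepsin D, had 151 and 192 TPM on Day1, 205 and 216 TPM on Day3, 185 and 177 TPM in Extracted, 189.9 and 205 TPM in Treated, and 179 and 189 TPM in Control cells. Over the 10 libraries ULK1, the kinase that starts the process, ranged from 12.3 to 17.7 TPM, ATG9A, which delivers lipid vesicles, from 24.2 to 35.5 TPM, and ATG16L1, the partner of ATG5 and ATG12, from 18.5 to 33.7 TPM. MCOLN1, a lysosomal calcium channel, ranged from 8.15 to 12.4 TPM and GLA, alpha-galactosidase A, from 38.6 to 52.4 TPM.

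For 9 of the 34 genes a gene on the opposite strand overlaps at 10% or more of their own mean TPM, and the strand setting of the libraries is not given in the sources used here. Reads of the pairs MAP1LC3B and FBXO31, ATG13 and HARBI1, WIPI1 and ARSG, SQSTM1 and MGAT4B, OPTN and CCDC3, ATG3 and SLC35A5, BECN1 and PSME3, ATG7 and VGLL4, and ATG12 and AP3S1 may thus be split unevenly. The overlapping gene had 392.8% of the mean TPM of ATG7, 289.2% of that of ATG12, 228.6% of that of BECN1, and at most 36.1% of that of the other 6. MCOLN1 overlaps PNPLA6 on its own strand, which had 77.7% of its mean TPM.

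Other genes of the pathway were taken from 6 lists that hold 178 further genes, of which 171 were tested. On Day1 42 were higher and 6 lower, on Day3 23 were higher and 1 lower, in Extracted cells 1 was higher and 2 lower, and in Treated cells 10 were higher and 21 lower, each against Control. As shares of the 171 Day1 had 24.6% higher and 3.51% lower (14.4% and 6.28% of all tested genes), and Day3 had 13.5% higher and 0.585% lower (5.18% and 4.64% of all). Extracted cells had 0.585% higher and 1.17% lower (0.857% and 1.13% of all), and Treated cells had 5.85% higher and 12.3% lower (6.28% and 18.2% of all). In the deposited TPM the lists thus had, in Treated cells, a share called higher close to that of all tested genes. Their share called lower was smaller. After median-of-ratios rescaling Day1 had 32 higher and 10 lower, Day3 had 25 higher and 4 lower, Extracted cells had 3 higher and 2 lower, and Treated cells had 27 higher and 13 lower. All tested genes had, in the same order, 10.8% and 11.1%, 5.49% and 7.5%, 2.18% and 2.03%, and 12.2% and 11.7%. With mitochondrial and small-RNA genes left out Day1 had 24 higher and 13 lower, Day3 had 11 higher and 5 lower, Extracted cells had 1 higher and 6 lower, and Treated cells had 17 higher and 20 lower. All tested genes then had 6.94% and 14%, 3.07% and 9.84%, 1.52% and 4.04%, and 8.5% and 20.1%. After either rescaling the lists' share called higher in Treated cells was above that of all tested genes. Their share called lower was below it. Without Treated replicate 2, more of the 171 were higher and fewer lower in Treated cells. Without Treated replicate 1, fewer were higher and more lower. Leaving out either Treated library raised the counts higher and lower on Day3 and in Extracted cells. In each of these fits the shares of all tested genes called moved the same way. In the deposited TPM the median fold changes of the 171 genes on Day1, on Day3, in Extracted and in Treated cells against Control were 0.20, 0.20, -0.04 and -0.09. Those of all tested genes were 0.12, 0.06, -0.02 and -0.15. Extracted cells against Day3 had 1 of the 171 higher and 36 lower, with 6.3% of all tested genes called higher and 10.8% lower. Counts of single lists, here and below, are given in the deposited TPM only. In the list of mTORC1 and TFEB regulators 6 of 30 rose (20.0%) and 1 fell on Day1, with 14.4% and 6.28% of all tested genes. In Treated cells 3 of these regulators rose and 4 fell, with 6.28% and 18.2% of all tested genes. The Day1 rises were led by DDIT4 and SESN2, stress-induced inhibitors of mTORC1. DDIT4 had 111 and 80.7 TPM on Day1, 37.2 and 41.5 TPM on Day3, 31.3 and 32.1 TPM in Extracted, 45.5 and 37.1 TPM in Treated, and 21.3 and 20.2 TPM in Control cells, so that each group lay above Control (Day1 fold change 2.14 ± 0.16, adjusted p = 8.86e-05, limma). SESN2 rose by 1.89 ± 0.15 on Day1 (adjusted p = 0.000122, limma). DEPTOR, an mTOR-binding inhibitor, rose in Treated cells, at 10.5 and 9.78 TPM against 3.54 and 3.36 TPM in Control cells (1.32 ± 0.13, adjusted p = 0.000231, limma).

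Receptors for whole organelles gave 7 rises and 0 falls of 14 on Day1, with 14.4% and 6.28% of all tested genes. BNIP3, a mitochondrial receptor induced by hypoxia, had 66.3 and 84.2 TPM on Day1 and 28.0 and 26.8 TPM in Control cells (1.42 ± 0.13, adjusted p = 0.000236, limma), and CCPG1, a receptor of the endoplasmic reticulum, had 51.2 and 47.2 TPM on Day1 and 29.6 and 27.8 TPM in Control cells (0.76 ± 0.11, adjusted p = 0.00216, limma). RETREG1 (FAM134B), another receptor of that organelle, fell in Treated cells, at 4.45 and 4.07 TPM against 12.6 and 11.9 TPM in Control cells (-1.33 ± 0.20, adjusted p = 0.0016, limma). Of the other autophagy machinery 9 of 32 rose and 1 fell on Day1, with the same shares of all tested genes. RB1CC1 (FIP200), the scaffold of the ULK1 complex, was among those that rose (0.93 ± 0.15, adjusted p = 0.00382, limma). In Treated cells 1 of the 32 rose and 5 fell (15.6%, below the 18.2% of all tested genes). Fewer fell without Treated replicate 2, where the share of all tested genes called lower was smaller too. ULK2, the paralog of ULK1, fell there to 2.92 and 2.35 TPM, against 10.8 and 9.24 TPM in Control cells (-1.60 ± 0.14, adjusted p = 9.24e-05, limma), while ULK1 had 13.6 and 12.9 TPM in Treated and 13.6 and 15.4 TPM in Control cells. ATG4D, a protease that trims ATG8 proteins, also fell (-0.76 ± 0.12, adjusted p = 0.00247, limma).

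The V-ATPase pumps protons into the lysosome. Of 22 tested subunit genes 9 rose and 0 fell on Day1, with 14.4% and 6.28% of all tested genes. ATP6V0B had 81.3 and 84.1 TPM on Day1 and 50.2 and 49.7 TPM in Control cells (0.72 ± 0.09, adjusted p = 0.00138, limma). In Treated cells 2 rose and 1 fell, with 6.28% and 18.2% of all tested genes. The 2 that rose are subunits with restricted tissue expression. ATP6V1B1, known from acid-secreting kidney cells, had 11.8 and 13.0 TPM in Treated and 2.80 and 4.79 TPM in Control cells (1.51 ± 0.22, adjusted p = 0.00164, limma), and ATP6V1G2, known from neurons, had 1.86 and 2.08 TPM in Treated and 1.00 and 0.722 TPM in Control cells (0.68 ± 0.20, adjusted p = 0.0345, limma). The ATP6V1G2 call ended without either Treated replicate (adjusted p = 0.0612 and 0.13).

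Of 46 other hydrolases 6 rose and 3 fell on Day1, a share close to that of all tested genes. In Treated cells 2 of them rose and 6 fell, with 6.28% and 18.2% of all tested genes. CTSS, cathepsin S, had 11.2 and 8.65 TPM on Day1 and 4.60 and 4.37 TPM in Control cells (0.98 ± 0.20, adjusted p = 0.00979, limma). LIPA, the acid lipase, rose on Day1 by 0.94 ± 0.19 (adjusted p = 0.00971, limma), and ARSB, a sulfatase, fell in Treated cells by 0.84 ± 0.19 (adjusted p = 0.0112, limma; 0.0614 without Treated replicate 2). Extracted cells against Day3 had 0 of the 46 higher and 15 lower, with 6.3% of all tested genes called higher and 10.8% lower. Of 27 other genes of the lysosomal membrane and of sorting, 5 rose and 1 fell on Day1, with 14.4% and 6.28% of all tested genes. OSTM1, a partner of a lysosomal chloride transporter, rose (0.88 ± 0.16, adjusted p = 0.00556, limma), while TMEM175, a lysosomal ion channel, fell to 12.4 and 15.8 TPM on Day1, against 22.7 and 26.3 TPM in Control cells (-0.76 ± 0.17, adjusted p = 0.013, limma). SLC36A1, a lysosomal amino-acid exporter, fell in Treated cells by 0.66 ± 0.15 (adjusted p = 0.0134, limma; 0.0731 without Treated replicate 2). The Treated calls of DEPTOR, RETREG1, ULK2, ATG4D and ATP6V1B1 were made without either Treated replicate as well.

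**Figure D4:**
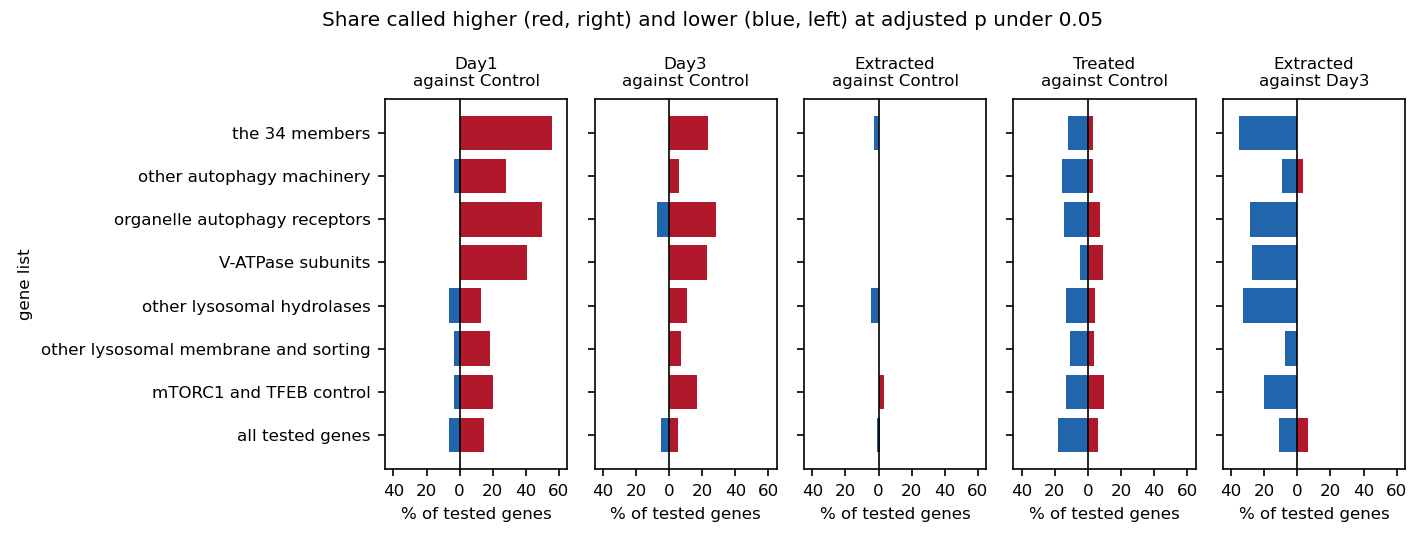
Share of tested genes called higher (red, to the right) and lower (blue, to the left) in each list (rows), for 4 comparisons against Control and for Extracted against Day3. The 34 genes had 19 called higher on Day1, and the lowest row gives all tested genes, of which 14.4% were called higher on Day1.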

How the data were processed

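The authors deposited 1 table of TPM per gene and library, made with Trimmomatic, STAR and Cufflinks on GRCh38 per the submitters' processing notes. The sources used here give no tool versions, annotation release, strand setting or depth, so no counting interval can be attached to a value. Of its 58313 entries (349 lines were blank), 91 repeated an identifier and were summed, which left 58222 genes. GENCODE 29, used for positions, held 57959 of them (99.55%).

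The filter was 1 TPM in 2 or more libraries, which kept 15167 genes. These were tested on log2(TPM + 1), a scale that understates changes of low genes, with limma 3.58.1 under R 4.3.3. The 10 libraries entered a single fit that had a coefficient for each group, a trend of variance on mean level, and 5 degrees of freedom left over. Tests were two-sided and Benjamini-Hochberg adjusted over all genes within each of 7 comparisons. The script was checked on simulated data before use.

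Members and lists were chosen with earlier results of these data known. Values are given for each gene called in any comparison and for the most abundant uncalled gene of a class, and each further list has its 3 called genes of largest change against Control named. The fit was repeated with 0.1 as the pseudocount, without the filter, with a filter at 5 TPM, after median-of-ratios scaling, with mitochondrial and small-RNA genes removed, with the replicate number as a block, and without each library (a group's remaining library then borrows its spread from the other groups). Promoter windows were those of RefSeq. Tables and plots were made in Python 3.11.15 with pandas 2.3.3, NumPy 2.4.6 and Matplotlib 3.10.9.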

Additional observations from a re-analysis of the deposited data

Results flagged for a closer look

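In 16 cases the effects of 2 groups against Control differed by a direct test of those groups in limma, given here on the log2 scale. On Day3 against Day1, LAMP3 was -1.772 and MAP1LC3B -0.6652. In Extracted cells against Day3, NEU1 was -0.8602, GABARAP -0.7634, GABARAPL1 -0.6516, CALCOCO2 -0.5857, NBR1 -0.52, ATG7 -0.4826, LAMP2 -0.4762, WIPI1 -0.4586, SQSTM1 -0.4025, TFE3 -0.3906, WIPI2 -0.3774 and HEXA -0.3446. In Treated against Extracted cells, CTSB was 1.166 and LAMP2 -0.3222. The CTSB difference, and those of NEU1 and GABARAP in Extracted cells against Day3, kept their call whichever library of the compared groups was removed, and the other 13 did not. Groups of 2 libraries are too small for the test of a single far sample.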

How the results depend on the processing

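Of the 49 changes called among the 34 genes, 49 kept their call with a pseudocount of 0.1 and with a filter at 5 TPM, 40 with median-of-ratios scaling, 36 with mitochondrial and small-RNA genes left out, 31 with no filter, and 24 to 48 with a single library left out, and 0 reversed. With no filter, 5 genes were higher on Day3 against Control, 0 lower on Day3 against Day1 and 6 lower in Extracted against Day3. Of all genes tested then, 1.53%, 0.219% and 4.27% were so called, against 5.18%, 1.69% and 10.8% with the filter. A filter at 5 TPM gave 1 higher in Extracted against Control, with 1.46% of all genes tested. Median-of-ratios scaling gave 1 higher in Extracted and 11 in Treated against Control, 1 higher in Extracted against Day3, and 3 higher and 0 lower in Treated against Extracted. All tested genes had, in the same order, 2.18%, 12.2%, 10.7%, 6.1% and 5.18%. With mitochondrial and small-RNA genes left out, 5 were higher on Day3, 1 in Extracted and 4 in Treated against Control, and 3 were higher and 0 lower in Treated against Extracted. The shares of all tested genes were then 3.07%, 1.52%, 8.5%, 5.26% and 6.93%. The cause of these shifts was not tested beyond the change each alternative makes.

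With each library left out in turn, counts ranged from 9 to 22 higher on Day1, 1 to 16 higher on Day3, 0 to 1 higher and 0 to 1 lower in Extracted, and 1 to 6 higher and 1 to 6 lower in Treated, each against Control. They ranged from 0 to 1 higher and 0 to 4 lower on Day3 against Day1, 2 to 13 lower in Extracted against Day3, and 1 to 2 higher and 0 to 6 lower in Treated against Extracted. The shares of all tested genes called also varied over these fits. Over the 10 pairs of groups, same-numbered replicates deviated with correlations of -0.022 to 0.087. These values cannot show whether same-numbered cultures were handled together. With the replicate block, 42 of the 49 calls remained, 7 ended and 3 were added. Those that ended were GABARAPL2 (adjusted p = 0.0519) and NEU1 (0.0519) on Day3 against Control, HEXA (0.0529) in Treated against Control, ATG7 (0.0617), SQSTM1 (0.0581) and TFE3 (0.0591) in Extracted against Day3, and LAMP2 (0.0519) in Treated against Extracted. Those added were ATG12 on Day3 against Control (0.0418) and in Treated against Extracted (0.0338), and GABARAPL1 in Treated against Control (0.0494). The counts, with added calls, were 19 higher on Day1, 7 higher on Day3, 1 lower in Extracted and 1 higher and 4 lower in Treated against Control, 2 lower on Day3 against Day1, 9 lower in Extracted against Day3, and 1 higher and 1 lower in Treated against Extracted. The replicate block changed no count by over 1.5 times. Depth is unknown, and 5 residual degrees of freedom limit the calls.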
